A study of Mus musculus with 12 samples.

Results

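Ischemia/reperfusion was compared with a sham operation across all 12 heart libraries of a mouse study of vitamin B12, 6 libraries from mice with ischemia/reperfusion (I/R) against 6 from sham-operated mice. The members were chosen by operation alone, so the comparison takes in every library of the series. The drinking water was kept as an additive covariate, and no interaction term was fitted. The I/R mice had the left anterior descending coronary artery closed for 45 min and then reopened for 24 h. Of these, 3 drank water with vitamin B12 at 50 mg/L for 7 days before surgery (I/R+B12), at a water intake of 4 mL per day, and 3 drank normal water (I/R). Below, I/R libraries means all 6 of these and sham libraries all 6 of the others, while a name with a number is 1 library. The sham mice had the same chest surgery with no closure of the artery, again 3 on B12 water (Sham+B12) and 3 on normal water (Sham). All mice were labelled wild type, and the strain, age and sex are not given in the sources used here. The tissue was labelled heart, without saying whether the injured or the remote wall was taken, or whether a library held 1 mouse or several. If the replicates were not separate animals, the p-values measure technical spread only.

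Closing and reopening a coronary artery kills part of the muscle wall. Dying cells release signals that make resident cells and the vessel wall produce chemokines. Neutrophils follow within hours, monocytes after them, and the surviving myocytes pass through a phase of protein damage, rebuilt secretion and altered fuel use. All values below are FPKM, which scales fragments to transcript length and to the size of the library. Differences are log2 differences of FPKM + 1, I/R minus sham, from limma with the Benjamini-Hochberg adjusted p. A gene was called at an adjusted p under 0.05.

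The libraries did not split cleanly by operation. Across genes, the library labelled I/R 3 correlated best with Sham 2, at 0.982, and the library labelled Sham 3 with I/R+B12 1, at 0.969. The library labelled I/R+B12 3 correlated best with Sham 3, at 0.955. Its mean correlation was 0.940 with the other I/R libraries and 0.946 with the sham libraries, while that of Sham 3 was 0.953 with I/R libraries and 0.964 with the other sham libraries. The library labelled I/R+B12 2 correlated least with the rest. Its best correlation was 0.947, with I/R+B12 3, and its mean was 0.927 with the other I/R libraries and 0.895 with the sham libraries. It held the highest I/R value of S100a9, Cxcl1, Cxcl2, Il6, Socs3, Lcn2 and Nppb in the ranges below. All were kept under their labels. Ventricular myocyte genes such as Myh6 and Myl2 were abundant in every library, as the label heart requires, with a summed level over 15 genes of 52106 to 78753 FPKM in I/R libraries and 70880 to 81229 FPKM in sham libraries. Depth was estimated at 23.75 to 28.25 M fragments per library, and 11490 to 12612 genes reached an FPKM of 1.

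Of 13001 genes tested, 838 were higher after I/R, which is 6.45% of the genes tested, and 100 were lower, which is 0.769%. Together these 938 genes were 7.21% of those tested, and all had the same direction on B12 water and on normal water. The tested difference is the mean of the differences within each water. A shared direction is therefore favoured by the selection and is no separate agreement between the waters. The median difference was 0.58 over the genes called higher and -0.62 over those called lower, against 0.05 over all genes tested. Only 128 differences reached 1 in size, 117 of them higher and 11 lower. In 470 genes, or 3.62% of those tested, all 6 I/R libraries lay above all 6 sham libraries, and 366 of these were called higher. In 84 genes, or 0.646%, all 6 lay below, and 36 of these were called lower. The number of calls depended strongly on the scaling. With median-ratio scaling 3 genes were called, 2 higher (0.0154%) and 1 lower (0.00769%), and at an unadjusted p under 0.05 the split was 2038 higher to 1979 lower, against 2762 to 1067 without it. Under that scaling 936 of the 938 genes kept an unadjusted p under 0.05, with a median adjusted p of 0.0569, and S100a9 differed by 4.99 there and by 5.04 without it. With quantile normalization 347 genes (2.67%) were called higher and 385 (2.96%) lower.

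The largest differences were those of chemokine, neutrophil and acute phase genes, and no gene of these 3 lists had libraries without overlap. Of the 838 genes called higher, 721 differed by less than 1. Of the 117 genes higher by 1 or more, 18 had non-overlapping libraries. In 89 of the 117 the library labelled I/R 3 was not above every sham library, and in 29 the library labelled I/R+B12 3 was not, while for the other 4 I/R libraries the number was 0 to 4. The library labelled Sham 3 was the highest sham library in 88 of the 117.

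Neutrophil chemokines were among the largest increases. Cxcl1, a ligand of the neutrophil receptor CXCR2, had 2.80 FPKM at the lowest, a median of 49.9 and 465 at the highest in I/R libraries, against 0.56, 0.92 and 15.6 FPKM in sham libraries. The groups overlapped, since the library labelled I/R 3, at 2.80 FPKM, lay under Sham 3, and the other 5 I/R libraries lay above every sham library. The log2 difference was 4.07 ± 0.95 (SE), with a limma adjusted p of 0.0349. Cxcl2, another CXCR2 ligand, had 0.66 to 378 FPKM in I/R libraries, with a median of 23.8, against 0 to 4.87 FPKM in sham libraries, with a median of 0.145. Its difference was 4.10 ± 0.96 (SE, adjusted p 0.0349). The 378 FPKM was that of I/R+B12 2, and the next highest I/R library, I/R+B12 1, had 29.0 FPKM. The related Cxcl3 and Cxcl5 rose by 4.14 and 3.99. Ccl2, the main attractant of CCR2-bearing monocytes, rose by 3.95 and had 86.5, 162 and 21.4 FPKM in I/R+B12, 170, 139 and 4.67 FPKM in I/R, 0.83, 1.27 and 1.42 FPKM in Sham+B12, and 1.53, 2.88 and 30.8 FPKM in Sham. The Ccl2 groups overlapped only in that the library labelled Sham 3 lay above I/R 3 and I/R+B12 3. The inflammatory cytokines Il1b and Il6 rose by 3.66 and 3.07, and Il6 was listed at 0 FPKM in the library labelled I/R 3. Of 24 tested cytokines, chemokines and receptors, 14 rose and none fell, all 24 differences were positive, against 56.7% of all genes tested, and the median was 1.79. Without the libraries labelled I/R 3 and Sham 3, 21 of the 24 rose. Of all genes tested, 6.45% were called higher with all libraries and 15% without this pair. The pair was left out after its values were seen. Here and below, a wider list or a smaller p without it follows in part from that choice and is no separate support.

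**Figure D1:**
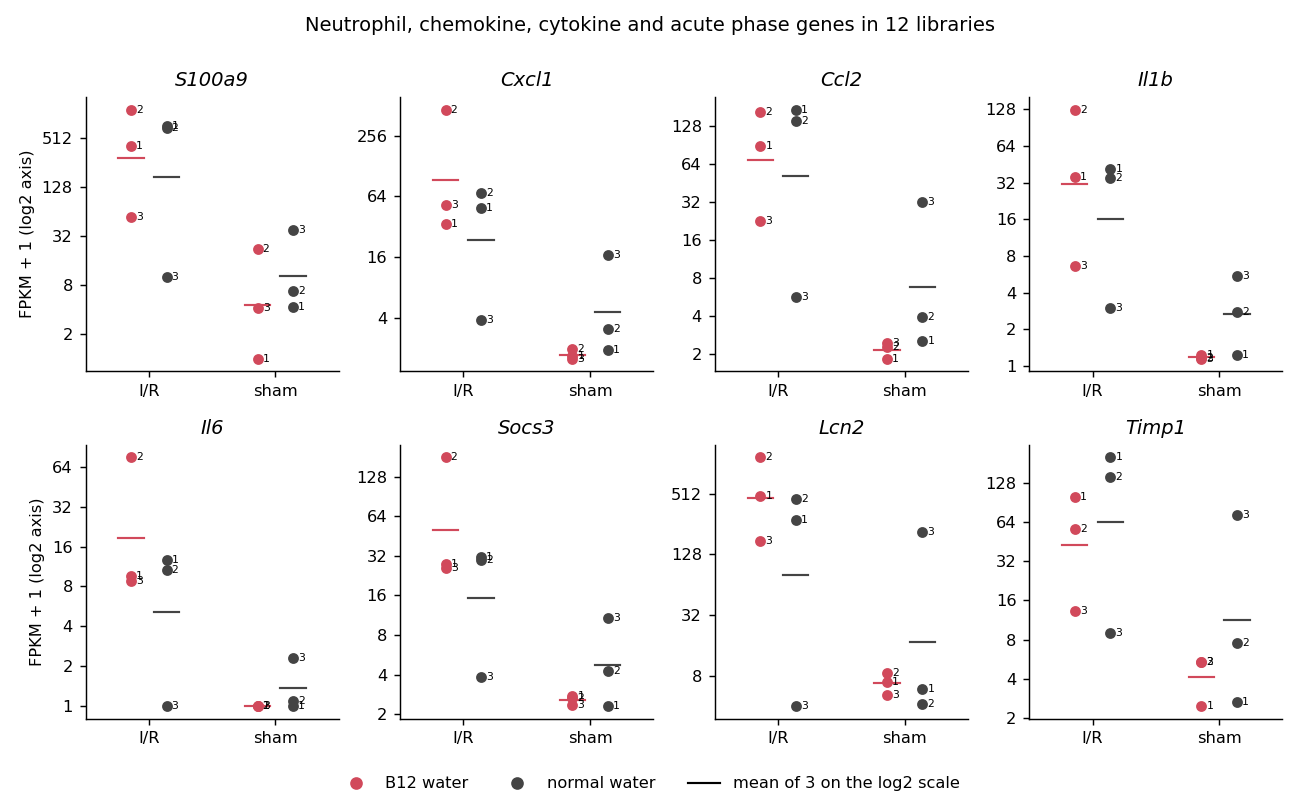
FPKM + 1 on a log2 axis in each I/R and sham library, for inflammatory genes; points are libraries with their replicate number, red for B12 water and dark for normal water, and lines are means of 3 libraries on the log2 scale. The library labelled I/R 3 lies with the sham libraries and the library labelled Sham 3 lies highest among them, as for Cxcl1 at 2.80 and 15.6 FPKM.

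The windows around the starts of the neighbouring genes Cxcl1 and Cxcl2 are shown as examples, picked from the chemokine genes with the largest increases. They come from RefSeq on GRCm38.p6 and run from 250 bases before to 50 bases after the start, on the plus strand, at chr5:90890995-90891294 for Cxcl1 and chr5:90903649-90903948 for Cxcl2. Capitals mark matches, on either strand and overlaps included, to the NF-kB motif.
Cxcl1: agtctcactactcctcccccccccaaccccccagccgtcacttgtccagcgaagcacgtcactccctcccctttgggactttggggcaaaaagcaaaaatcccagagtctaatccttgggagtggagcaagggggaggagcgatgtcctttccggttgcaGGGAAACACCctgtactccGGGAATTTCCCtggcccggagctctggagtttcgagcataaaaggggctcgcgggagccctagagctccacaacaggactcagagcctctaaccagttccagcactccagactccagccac
Cxcl2: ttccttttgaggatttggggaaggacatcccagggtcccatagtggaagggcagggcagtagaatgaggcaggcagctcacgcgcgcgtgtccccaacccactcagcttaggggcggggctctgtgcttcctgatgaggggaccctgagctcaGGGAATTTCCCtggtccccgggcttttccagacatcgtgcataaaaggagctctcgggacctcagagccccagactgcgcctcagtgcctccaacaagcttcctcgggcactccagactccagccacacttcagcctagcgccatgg
The same letters were found in 50% of 22 windows of the tested cytokine list. The share was 28.3% for all genes called higher, 36% for those higher by 1 or more and 27.9% for genes called lower. It was 26.5% of windows of tested genes and 20.7% of all 32851 promoter windows. A match describes the letters and does not show a site in use.

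Neutrophil genes rose beside their chemokines. S100a9, which with S100a8 forms the calprotectin of neutrophils, had the largest difference of all called genes. It had 9.10 FPKM at the lowest, a median of 544 and 1139 at the highest in I/R libraries, against 0, 4.50 and 36.6 FPKM in sham libraries. The I/R 3 library lay under Sham 3 and Sham+B12 2, and the other 5 I/R libraries lay above every sham library. The difference was 5.04 ± 1.21 (SE, limma adjusted p 0.0366). S100a8, Retnlg, a resistin-like secreted protein of granulocytes, and Wfdc21 rose by 4.71, 4.26 and 3.34. Il1r2, the decoy receptor for interleukin-1, rose by 3.18. Of 22 tested neutrophil genes 7 rose and none fell, against 6.45% of all genes tested called higher. All 22 were positive, and the median was 2.17. The summed level of the 24 listed genes was 111 to 3748 FPKM in I/R libraries and 59.3 to 353 FPKM in sham libraries. More neutrophils and more RNA per neutrophil cannot be told apart in tissue samples, nor can fewer cells of any other type and less RNA per cell. The list was wider when the libraries labelled I/R 3 and Sham 3 were left out, with 20 of 22 higher, against 15% of all genes tested.

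Genes of recruited monocytes and of resident macrophages differed in their calls. Of 20 genes of recruited monocytes and macrophages 3 rose, Ly6c2, Cd14 and Thbs1, while 6.45% of all genes tested were called higher. In this list 19 differences were positive, and the median was 1.5. Without I/R 3 and Sham 3, 14 of the 20 rose, with a median of 1.98, against 15% of all genes tested. Ly6c2, a surface marker of inflammatory monocytes, had 3.13 to 16.4 FPKM in I/R libraries, against 0.99 to 3.89 FPKM in sham libraries, and differed by 1.46 ± 0.34 (SE, limma adjusted p 0.0349). Genes of resident cardiac macrophages, such as Timd4 and Folr2, gave no call among 17 tested, and 16 differences were negative, against 43.3% of all genes tested, with a median of -0.22. Their median was -0.86 on B12 water and 0.37 on normal water, or 0.14 on normal water without the libraries labelled I/R 3 and Sham 3, while the recruited monocyte median was 1.43 on B12 water and 1.36 on normal water. Antigen presentation genes and complement components also had medians of opposite sign by water, -0.61 and -0.46 on B12 water against 0.43 and 0.38 on normal water, with no call in either list. Without I/R 3 and Sham 3 the normal water medians were 0.09 and 0.23. For antigen presentation the mean score on normal water was highest in Sham 2 (0.95) and I/R 3 (0.87) and lowest in Sham 3 (-0.63). The interaction of operation and water gave no called gene (limma), with 1595 at an unadjusted p under 0.05. Single-gene differences between the waters were therefore not called, and the difference between list medians was not tested.

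The acute phase and interleukin-6 response rose in 5 of 17 tested genes, with none lower, all 17 positive and a median of 1.71. Socs3, the feedback inhibitor of this pathway, had 2.86 to 179 FPKM in I/R libraries, against 1.30 to 9.67 FPKM in sham libraries, and rose by 3.0. Ptx3, a secreted pattern recognition protein, and Hp, haptoglobin, rose by 3.08 and 2.93. Bcl3, a nuclear partner of NF-kB, rose by 1.71. Lcn2, an iron-scavenging neutrophil and acute phase protein, and Timp1, an inhibitor of matrix proteases, did not pass. Lcn2 had 3.04 to 1176 FPKM in I/R libraries, against 3.20 to 210 FPKM in sham libraries (4.14 ± 1.32 SE, limma adjusted p 0.0686). Both genes were lowest among I/R libraries in I/R 3 and highest among sham libraries in Sham 3. Without those libraries, Lcn2 differed by 6.11 and Timp1 by 4.10, with limma adjusted p of 0.000268 and 0.00306. Leaving out libraries that ran against a difference widens it by construction, so these values are a description and no support.

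Interferon-stimulated genes rose in 5 of 25, with a median of 0.30, and that median was -0.02 on B12 water and 0.80 on normal water, or 0.56 on normal water without I/R 3 and Sham 3. Cxcl10, an interferon-induced ligand of CXCR3, had 2.34 to 11.3 FPKM in I/R libraries, all above the 0.46 to 2.01 FPKM of the sham libraries. It differed by 1.52 ± 0.30 (SE, limma adjusted p 0.0312), by 1.77 on B12 water and 1.28 on normal water. Oasl1 and Zbp1, both induced by viral nucleic acid sensing, rose by 0.80 and 1.12. Cxcl10 was thus among the 18 genes that were higher by 1 or more with no overlap. Further members of these 18, picked after their values were seen, were the leukocyte genes Cytip, Cd53 and Srgn, which rose by 1.68, 1.65 and 1.60. Casp4, a caspase activated by cytosolic endotoxin, rose by 1.32, and Emp1, an epithelial membrane protein, by 1.27.

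Among increases the smallest p was that of Dnaja1, a cytosolic co-chaperone that delivers clients to HSP70. It had 25.2 FPKM at the lowest, a median of 33.3 and 37.7 at the highest in I/R libraries, against 15.7, 17.4 and 19.2 FPKM in sham libraries. All 6 I/R libraries lay above all 6 sham libraries, the libraries labelled I/R 3 and Sham 3 included. The difference was 0.87 ± 0.10 (SE, limma adjusted p 0.00929). Of 26 heat shock chaperones 4 rose and the others gave no call, and the list median was 0.03, or -0.04 with median-ratio scaling. Dnajb1 and Dnajb4, co-chaperones of the same family, rose by 0.99 and 0.62, also with no overlap. Hspa8, the constitutive HSP70, had non-overlapping libraries without being called.

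The window around the first of 3 annotated starts of Dnaja1 is shown because this gene had the smallest p among the increases. It comes from RefSeq on GRCm38.p6, plus strand, chr4:40722218-40722517. Capitals mark a match to GAANNTTC, a core of the heat shock element, searched on both strands.
Dnaja1: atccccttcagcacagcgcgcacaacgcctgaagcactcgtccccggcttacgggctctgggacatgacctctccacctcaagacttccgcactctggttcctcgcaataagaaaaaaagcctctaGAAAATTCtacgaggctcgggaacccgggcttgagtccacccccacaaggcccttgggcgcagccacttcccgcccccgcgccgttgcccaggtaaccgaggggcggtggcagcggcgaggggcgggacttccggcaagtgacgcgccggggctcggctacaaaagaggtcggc
The other 2 windows of Dnaja1 did not hold these letters. They were found in 45.2% of 31 windows of the heat shock list and in 5.54% of windows of genes called higher, against 5.65% of windows of tested genes and 7.86% of all windows.

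Several genes of protein folding in the endoplasmic reticulum rose. Dnajc3, an endoplasmic reticulum co-chaperone that also restrains the kinase PERK, had 10.4 to 16.7 FPKM in I/R libraries, all above the 6.81 to 8.13 FPKM of the sham libraries, and differed by 0.86 ± 0.11 (SE, limma adjusted p 0.0244). Hspa5, the lumenal HSP70 known as BiP, had 133 to 260 FPKM in I/R libraries, all above the 95.0 to 126 FPKM of the sham libraries, and differed by 0.79. Dnajb11, a partner of BiP, and Xbp1, a transcription factor of the response, rose by 0.56 and 0.92. Of 20 genes of the unfolded protein response 6 rose and none fell, against 6.45% of all genes tested called higher. In 4 all I/R libraries lay above all sham libraries, against 3.62% of all genes tested, and the list median was 0.49. Copb1, a coatomer subunit of vesicles that return to the endoplasmic reticulum, rose by 0.66 with no overlap. Of 9 subunits of this coatomer, gathered after the values were seen, 2 rose. Their median was 0.06, or -0.004 with median-ratio scaling.

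Several RNA processing genes rose. Srsf7, a splicing factor with a serine and arginine-rich tail, had 21.7 to 29.1 FPKM in I/R libraries, all above the 11.4 to 18.9 FPKM of the sham libraries, and differed by 0.82 ± 0.12 (SE, limma adjusted p 0.0244). Sfpq, a nuclear RNA-binding protein of paraspeckles, rose by 0.83. The families below were gathered by symbol after the values were seen. Of 20 heterogeneous nuclear ribonucleoproteins 10 rose, 19 were positive, and the median was 0.41. Of 10 SR splicing factors 3 rose and all 10 were positive, with a median of 0.48. Of 36 RNA-binding motif proteins 8 rose, with a median of 0.26. None of these 3 families had a member called lower. Hnrnpf rose by 0.65, with 83.4 to 117 FPKM in I/R libraries and 53 to 75.2 FPKM in sham libraries. Srsf3 rose by 0.90, with 27.5 to 40.5 FPKM in I/R libraries and 13.8 to 24.6 FPKM in sham libraries.

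**Figure D2:**
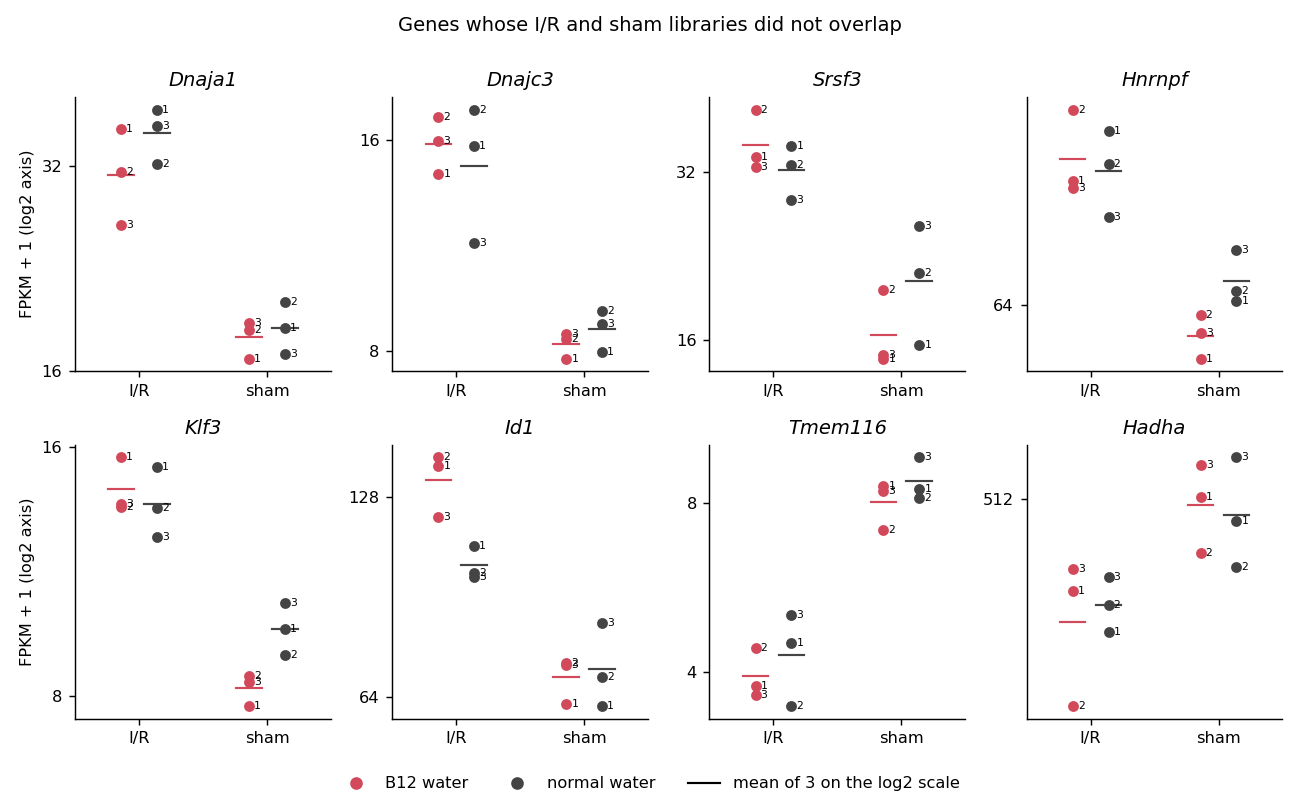
FPKM + 1 on a log2 axis in each I/R and sham library, for 8 genes with no overlap; points are libraries with their replicate number, red for B12 water and dark for normal water, and lines are means of 3 libraries on the log2 scale. Dnaja1 lies at 25.2 to 37.7 FPKM in I/R libraries and 15.7 to 19.2 FPKM in sham libraries, while Tmem116 and Hadha lie lower in every I/R library.

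Some genes of ribosome production were called as well. Of 22 genes of ribosome biogenesis and tRNA synthetases 8 rose and none fell, with a median of 0.32. Fbl, the methyltransferase of box C/D particles in the nucleolus, had 31.4 to 54.0 FPKM in I/R libraries, all above the 22.8 to 29.1 FPKM of the sham libraries, and differed by 0.71 ± 0.13 (SE, limma adjusted p 0.0254). Nop58, its partner in these particles, and Npm1, nucleophosmin, rose by 1.27 and 0.67. Of 81 cytosolic ribosomal protein genes, also gathered after the values were seen, 11 rose and 79 were positive, with a median of 0.29. Nasp, a histone chaperone, and Pcna, the sliding clamp of DNA polymerases, rose by 0.71 and 0.62 with no overlap. Of 18 cell cycle genes 1 rose, Pcna itself, which is near the 6.45% of all genes tested that were called higher.

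Regulators of TGF-beta and BMP signalling and immediate early factors were also among the calls. Id1, an inhibitor of basic helix-loop-helix factors induced by BMP signals, had 96.0 to 146 FPKM in I/R libraries, all above the 60.9 to 81.7 FPKM of the sham libraries, and differed by 0.75 ± 0.11 (SE, limma adjusted p 0.0244). Id3, its relative, and Skil, a SMAD corepressor, rose by 0.55 and 0.97, again with no overlap. Of 23 genes of TGF-beta signalling 6 rose and none fell, with a median of 0.41. Of 20 immediate early genes 4 rose, against 6.45% of all genes tested, all 20 were positive, and the median was 1.05. Without the libraries labelled I/R 3 and Sham 3, 15 of the 20 rose, against 15% of all genes tested. Klf3 and Klf6, zinc finger factors, rose by 0.65 and 0.73 with no overlap, and Klf4 rose by 0.80 with some. Nab1, a corepressor of EGR factors, rose by 0.74. Nrf1, nuclear respiratory factor 1, rose by 0.57.

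Matrix, cytoskeleton and stress genes gave fewer calls. Of all genes tested, 6.45% were called higher. The counts of endothelial genes and of B12 and one-carbon genes lie near or under that share and are no result about those lists. Col4a1 and Col4a2, the chains of basement membrane collagen, rose by 0.98 and 0.82, and 3 of 27 collagens and matrix proteins rose in all. That list had a median of -0.37 on B12 water and 0.39 on normal water, or 0.58 on normal water without I/R 3 and Sham 3. Of 25 matrix remodelling enzymes 4 rose, among them Plaur, the urokinase receptor, by 2.84 and Mmp14, a membrane-bound collagenase, by 1.28. Actb, cytoplasmic actin, had 243 to 847 FPKM in I/R libraries, against 193 to 316 FPKM in sham libraries, and rose by 1.07. Of 26 antioxidant genes 3 rose, Txn1, Txnrd1 and Nfe2l2, the thioredoxin, its reductase and the NRF2 factor, by 0.60, 0.96 and 0.55. Of 26 genes of B12 and one-carbon metabolism 1 rose, Mthfd2, a mitochondrial folate enzyme, by 1.03. Of 15 endothelial genes 1 rose, the junction gene Esam, by 0.50. Wt1, a factor of the epicardium, rose by 0.78, with 2.51 to 7.62 FPKM in I/R libraries, all above the 1.05 to 2.38 FPKM of the sham libraries. Only 2 of 11 epicardial and mesothelial genes were tested, and the other, Gpm6a, differed by -0.46 without a call.

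Among the decreases, Inmt, a methyltransferase of small amines, was the largest of those named. It had 1.79 FPKM at the lowest, a median of 8.62 and 40.8 at the highest in I/R libraries, against 37.9, 49.2 and 66.4 FPKM in sham libraries. The I/R 3 library, at 40.8 FPKM, was the only one to reach the sham range. The difference was -2.37 ± 0.48 (SE, limma adjusted p 0.0312). Tmem116, a transmembrane protein, had the smallest p of all genes, with 2.47 to 4.04 FPKM in I/R libraries, all below the 6.17 to 8.66 FPKM of the sham libraries. It differed by -1.03 ± 0.11 (SE, limma adjusted p 0.00929), and by -1.03 within each water. Aldh1a1, which makes retinoic acid, and Retsat, retinol saturase, fell by 1.03 and 0.72, and all their I/R libraries lay below all sham libraries. Pik3ip1, an inhibitor of phosphoinositide 3-kinase, and Slc25a42, the mitochondrial carrier of coenzyme A, fell by 1.21 and 1.05 with no overlap. Klhl38, Snai3, Eya2, Vit and Epor, the erythropoietin receptor, fell by 1.37, 1.00, 0.90, 0.71 and 0.73, all with no overlap. Ccl27b was listed at 0 in all 6 I/R libraries and in Sham+B12 1, and had 0.62 to 2.67 FPKM in the other 5 sham libraries, but near-identical copies of this gene share reads, so its value is uncertain.

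The genes of fatty acid oxidation and glycolysis that were called fell. Of all genes tested, 0.769% were called lower. Of 28 genes of fatty acid uptake and oxidation 3 fell and none rose, 26 were negative, and the median was -0.28. Hadha, the alpha subunit of the mitochondrial trifunctional protein, had 269 FPKM at the lowest, a median of 376 and 411 at the highest in I/R libraries, against 414, 495 and 581 FPKM in sham libraries. The groups just failed to touch. The difference was -0.46 ± 0.12 (SE, limma adjusted p 0.0465). Acaa2 and Hadh, the thiolase and a dehydrogenase of the same pathway, fell by 0.39 and 0.39 with overlapping libraries. Cpt2 and Mlycd had no overlap but were not called. Ehhadh, the peroxisomal bifunctional enzyme, fell by 0.97. Of 26 glycolysis genes 2 fell, Pygm, muscle glycogen phosphorylase, by 0.46 and Pdk2, a kinase that inhibits pyruvate dehydrogenase, by 0.53. Without I/R 3 and Sham 3, 8 of these 26 genes were called lower and 3 higher, against 5.54% and 15% of all genes tested. No call was made among 26 nuclear respiratory chain genes, 24 genes of the citric acid cycle, 24 of ion channels and calcium handling, or 15 ventricular myocyte genes, with medians of -0.19, -0.23, -0.29 and -0.26. Of 11 mitochondrially encoded genes 1 rose, mt-Atp8, a subunit of the ATP synthase, by 0.37. That gene differed by 0.30 with median-ratio scaling and by 0.075 with quantile normalization, and was called under neither. All 15 ventricular myocyte differences were negative, and their summed level is given above. Its part in the fuel gene differences was not tested.

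**Figure D3:**
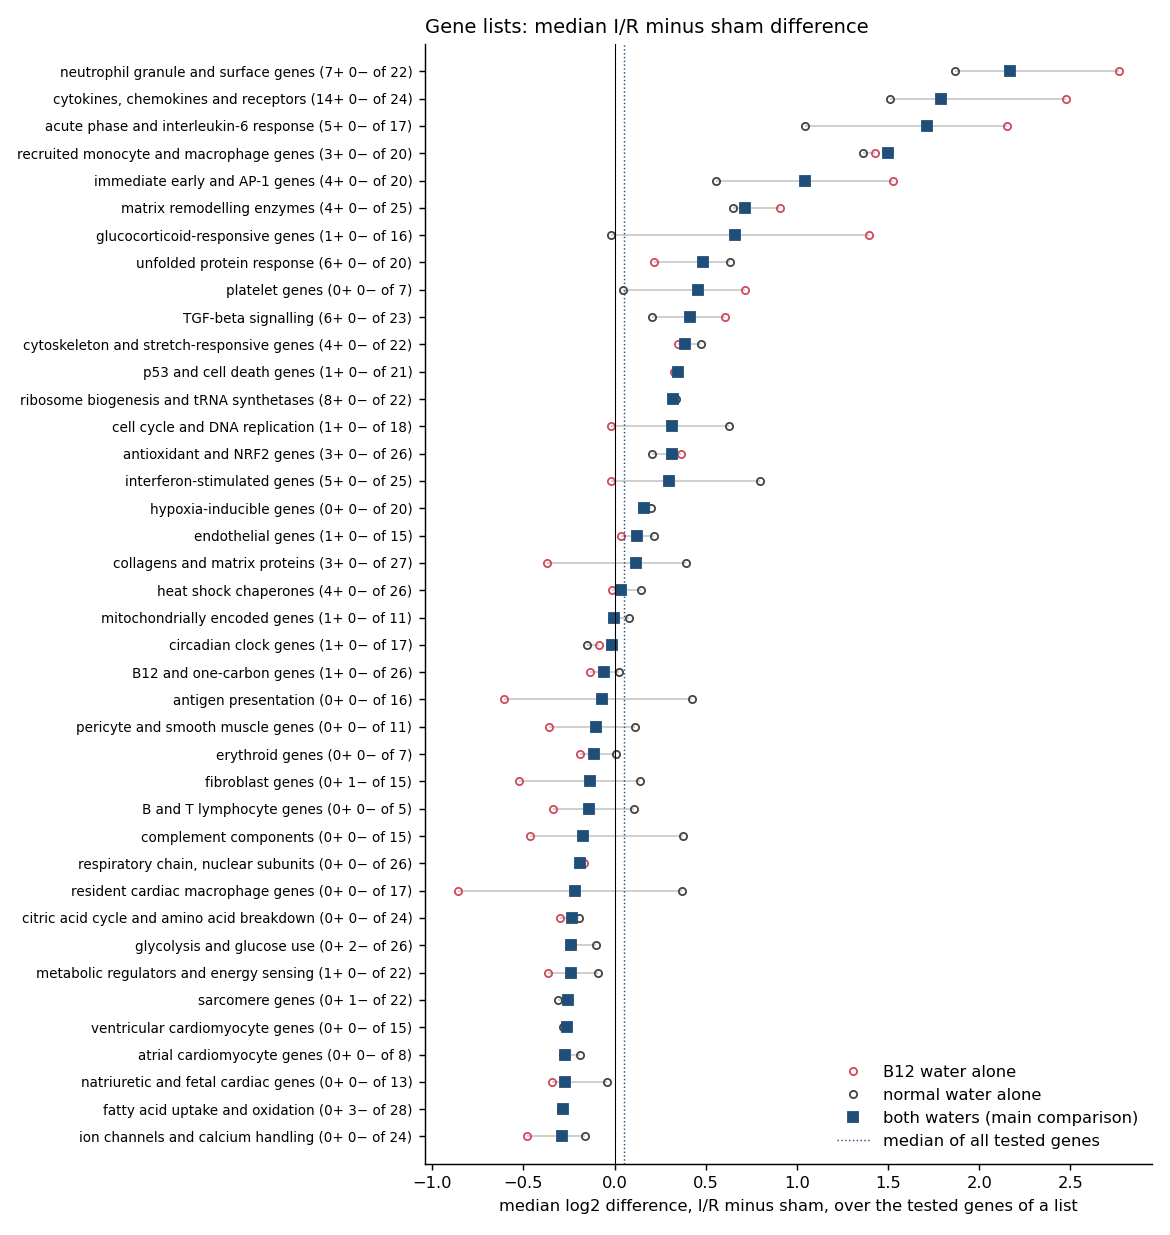
Median log2 difference, I/R minus sham, over the tested genes of each list, with all 12 libraries and within each water; counts beside a list are its genes called in each direction. Inflammatory lists lie farthest to the right, with the neutrophil list at 2.17, and fuel and muscle lists lie between -0.19 and -0.29.

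Nppa and Nppb, the natriuretic peptides, and Myh7, the slow myosin, were not called with all 12 libraries. Nppa had 178 to 707 FPKM in I/R libraries, against 211 to 3157 FPKM in sham libraries, and the highest value was that of Sham 3. Its difference was -0.27 ± 0.53 (SE, limma adjusted p 0.759), and 0.24 without Sham 3. Nppb had 220 to 2039 FPKM in I/R libraries and 119 to 753 FPKM in sham libraries, with a difference of 1.14 ± 0.57 (SE, adjusted p 0.20), and it was called without the libraries labelled I/R 3 and Sham 3 (1.65, adjusted p 0.0461). Myh7 differed by 0.05 ± 0.54, and by -0.02 under either median-ratio or quantile scaling. Myh6, the fast myosin of the adult mouse heart, had 4484 to 8937 FPKM in I/R libraries and 6975 to 9548 FPKM in sham libraries, with a difference of -0.50 ± 0.16 (SE, adjusted p 0.0677). Sirt3, a mitochondrial deacetylase, differed by -0.36 (adjusted p 0.0749). Without the same pair of libraries both were called lower, Myh6 at -0.55 (adjusted p 0.0419) and Sirt3 at -0.47 (adjusted p 0.0160). That pair was left out after the data were seen, so the calls of Nppb, Myh6 and Sirt3 without it are a description.

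The number of calls moved with single libraries. Without I/R 1 or Sham+B12 1 it was 3, without I/R 2, I/R+B12 1, Sham+B12 2 or Sham+B12 3 it was 2, and without Sham 1 it was 0 by limma, with 3178 genes at an unadjusted p under 0.05. It was 434 without I/R+B12 2 and 391 without Sham 2. It was 2178 without I/R 3, 1686 without I/R+B12 3 and 1625 without Sham 3. In each of these 12 fits, all 938 genes kept their direction and an unadjusted p under 0.05, and without Sham 1 their adjusted p lay between 0.0527 and 0.111. These fits reuse most of the libraries that selected the genes, so keeping direction and a low unadjusted p was favoured in advance. Without both I/R 3 and Sham 3, left out after the data were seen, 1946 genes were called higher and 720 lower, which is 15% and 5.54% of those tested, and 924 of the 938 were among them. Within B12 water alone 241 genes were called, 166 higher (1.28%) and 75 lower (0.577%), and within normal water alone 2, both lower (0.0154%). The libraries labelled I/R 3 and Sham 3 are both on normal water, and without them that water gave 743 calls, 677 higher (5.21%) and 66 lower (0.508%).

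**Figure D4:**
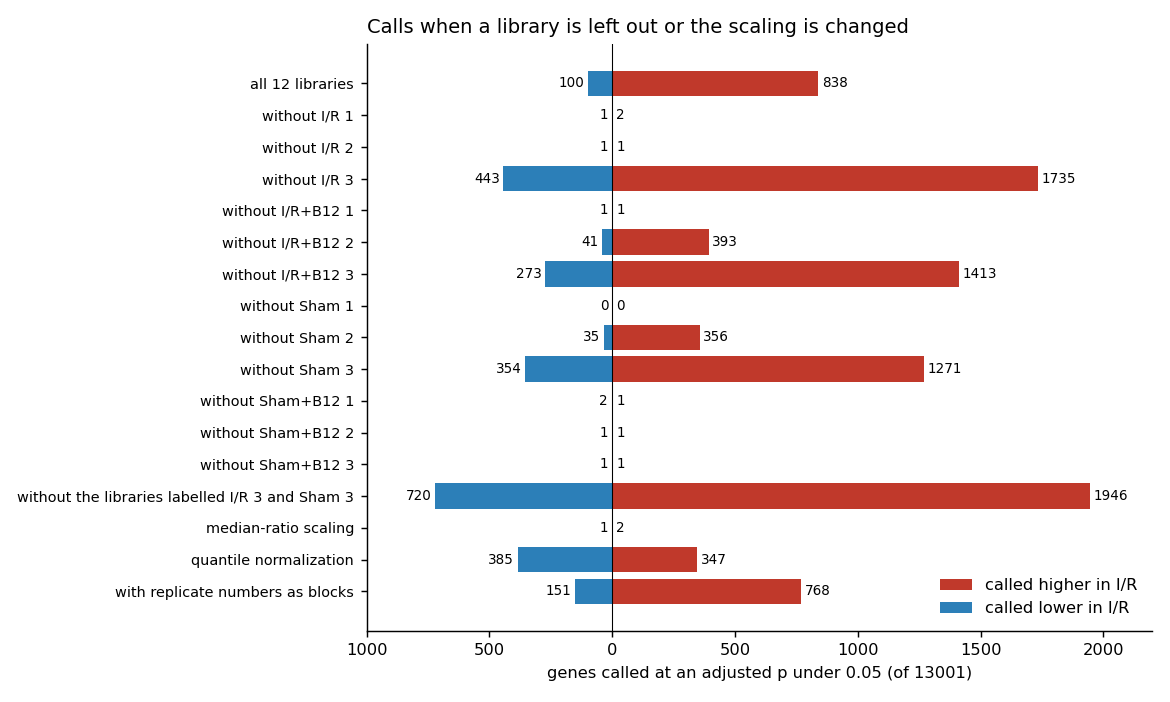
Genes called higher (right) and lower (left) at an adjusted p under 0.05 with all 12 libraries, without each library in turn, without the libraries labelled I/R 3 and Sham 3, and with other scalings or replicate numbers as blocks. The bars run to 838 higher and 100 lower with all libraries and vanish without Sham 1.

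The positions of the libraries labelled I/R 3 and Sham 3 differed from one gene group to the next. Genes were called on the other 10 libraries, and each left-out library was then placed between the mean of I/R 1 and 2, at 1, and the mean of Sham 1 and 2, at 0, over genes with a gap of at least 0.3. Over all 2302 such genes the median position was 0.23 for I/R 3 and 0.46 for Sham 3. For 98 genes higher by 2 or more, the median position of the library labelled I/R 3 was 0.05 and that of Sham 3 was 0.44. For 20 neutrophil genes the positions were 0.01 for I/R 3 and 0.28 for Sham 3. For 9 heat shock chaperones they were 0.34 for I/R 3 and 0.58 for Sham 3, and for 5 interferon-stimulated genes 0.58 for I/R 3 and -0.55 for Sham 3. In families gathered after the values were seen, the 7 DnaJ co-chaperones were at 0.78 for I/R 3 and 0.13 for Sham 3, and the 5 Kruppel-like factors at 0.85 for I/R 3 and 0.30 for Sham 3. Among the gene lists, which were also chosen with earlier results of these data known, the library labelled I/R 3 lay near the sham level in neutrophil genes. In interferon-stimulated genes I/R 3 lay nearer the I/R level in 3 of 5 genes. The DnaJ and Kruppel-like families were gathered with the values of I/R 3 known, so its high position there may follow from that choice. The 11 heterogeneous nuclear ribonucleoproteins, from the same families, were at 0.53 for I/R 3 and 0.28 for Sham 3. For 15 immediate early genes the positions were 0.54 for I/R 3 and 0.85 for Sham 3, and for 7 glucocorticoid-responsive genes -0.05 for I/R 3 and 1.72 for Sham 3. These positions are a description of 2 libraries and carry no test.

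**Figure D5:**
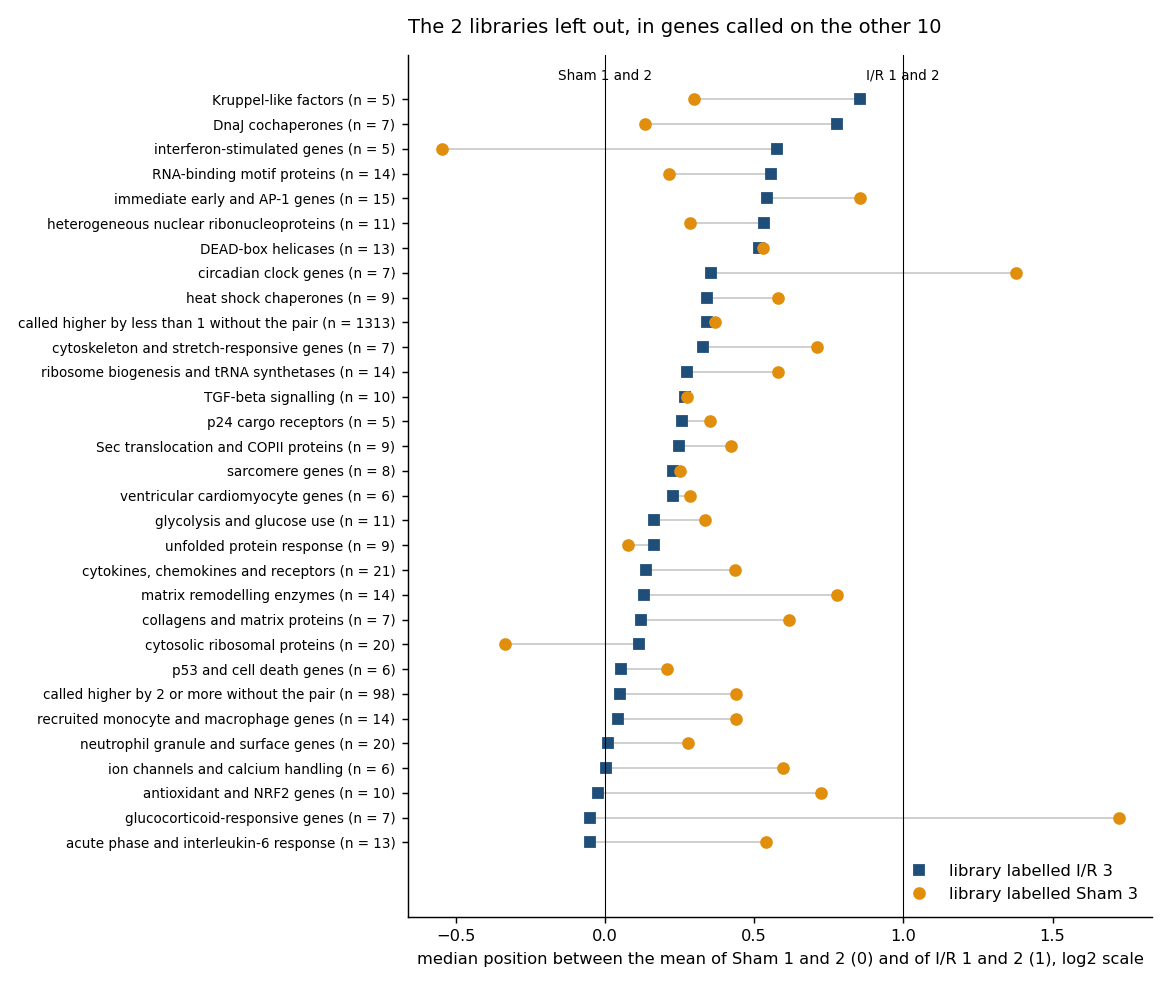
Median position of the libraries labelled I/R 3 (squares) and Sham 3 (circles) between the mean of I/R 1 and 2 at 1 and of Sham 1 and 2 at 0, on the log2 scale, in genes called on the other 10 libraries; n is the number of genes. I/R 3 lies near 0 in neutrophil genes, at 0.01, and at 0.78 in DnaJ co-chaperones, a family gathered after the values were seen.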

How the data were processed

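Polyadenylated heart RNA of 12 libraries was sequenced in read pairs, per the labels' protocols. The authors deposited 1 table of FPKM for 55487 genes, with a column for each library and 4 group means, which were not used. HISAT2, StringTie and mm10 are named in the submitters' processing notes, with no versions. Whether counting used strand is not given in the sources used here, so genes that GENCODE marks as overlapping another (among those named, Nmb, Lrrc8c, Klf3, Sfpq, Gsn, Txnrd1, Clock, Mthfd2, Hnrnpf and Abi1) are uncertain. GENCODE M21 held 55227 of the gene IDs.

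Values were analysed as log2(FPKM + 1), which understates changes of low genes. The 13001 genes that reached an FPKM of 1 in 3 or more libraries were fitted in R 4.3.3 by limma 3.58.1, with operation and water as terms and a trend in the variance. P-values are two-sided and Benjamini-Hochberg adjusted over all 13001. The fit was tested on simulated data. The members, the 42 gene lists and the rule for named genes were chosen with earlier results of these data known. The rule took called genes with the same sign in both waters: the 15 largest in each direction, the 10 with the smallest p in each direction, the 3 with the smallest p in each list, and 10 preset genes. A result that this rule names is not reported here.

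The table gives no counts. Low FPKM values lie on steps of 1 fragment, which gave an estimate of depth, and 80.5% to 87.3% of them fell within 0.15 of a whole fragment. For a 1500 nt transcript, FPKM 1 then stands for 29.7 to 35.0 fragments. No interval was drawn from these estimates.

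No replicate pairing was assumed, since libraries with the same number did not deviate together. Alternatives were pseudocounts of 0.1 and 0.5, other filters, median-ratio scaling, quantile normalization, no trend or a robust trend, library weights, other model terms, each water alone and each library left out. Leaving out the libraries labelled I/R 3 and Sham 3 was added after the data were seen, in the full comparison and within normal water. Figures were drawn with matplotlib 3.10.9.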

Additional observations from a re-analysis of the deposited data

Results flagged for a closer look

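In 202 groups of 6 libraries (the I/R or the sham libraries of each named gene), 30 had a highest or lowest library set apart from the other 5, judged by its gap to the nearest library as a share of the whole range. Chance sets apart about 1 in 20 groups. The library labelled Sham 3 accounted for 24 of the 30.

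Sham 3 was the highest sham library in chemokine and cytokine genes, with a gap of 0.98 of the range for Cxcl3, 0.924 for Cxcl5, 0.888 for Cxcl2, 0.885 for Il6, 0.737 for Ccl2, 0.715 for Cxcl1 and 0.65 for Ccl7. It was also the highest in Il1r2 (0.923), Ptx3 (0.865), Lcn2 (0.819), Plaur (0.773), Thbs1 (0.706) and Timp1 (0.669). Beyond inflammation it was the highest in Tubb6, a tubulin (0.884), in Nppb (0.805) and Nppa (0.66), and in the stress genes Nfe2l2 (0.758), Dnajb4 (0.698), Fosl2 (0.689) and Txnrd1 (0.664). It was the highest in Mthfd2 (0.681) and Fbl (0.64) and the lowest in Smco1 (0.688) and Sirt3 (0.674).

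The remaining 6 lay in 4 other libraries. Among I/R libraries, I/R+B12 2 was the highest in Dnajb1 (0.857) and Klf6 (0.799) and the lowest in Klhl38 (0.644). I/R 3 was the lowest in Lcn2 (0.662), and I/R 1 the lowest in mt-Atp8 (0.669). Among sham libraries, Sham+B12 1 was the highest in Mdm2 (0.636). The cause of these gaps was not tested.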

How the results depend on the processing

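All 938 called genes kept their direction under every alternative that tested them, while the number of calls moved. The alternatives reuse libraries that selected these genes, so a kept direction was favoured in advance. It was 64 with no filter (61 higher, 3 lower), 3 with median-ratio scaling (2 higher, 1 lower) and 4654 with library weights (3618 higher, 1036 lower). Quantile normalization gave 347 higher and 385 lower. B12 water alone gave 241, with 166 higher, and normal water alone gave 2, with 0 higher and 2 lower, and 2077 genes at an unadjusted p under 0.05 (limma). Without the libraries labelled I/R 3 and Sham 3, an alternative added after the data were seen, the number was 2666 (1946 higher, 720 lower). Normal water alone without them, also added, gave 743 (677 higher, 66 lower). The interaction term gave 222 lower. Leaving out 1 library each gave 0 to 2178 calls, 0 to 1735 higher and 0 to 443 lower. With replicate numbers as a block the calls were 919, of which 768 were higher and 151 lower, and they held 749 of the 938. The numbers did not pair the samples, with a mean correlation of 0.01 over 18 same-number pairs and -0.01 over 36 others. Nppa turned positive on B12 water alone (0.39), without I/R 2 (0.07), without Sham 3 (0.24) and without both I/R 3 and Sham 3 (0.10), with a range of -0.50 to 0.24 over the libraries left out. Myh7 turned negative under median-ratio scaling and quantile normalization (-0.016 and -0.020), on B12 water alone (-0.031), and without I/R 1 (-0.17), Sham 1 (-0.33), Sham 2 (-0.06) or Sham+B12 2 (-0.15), with a range of -0.33 to 0.52. Neither gene was called. The cause of these shifts was not tested. At the estimated depth an FPKM of 1 rests on 29.7 to 35.0 fragments for a 1500 nt transcript. Differences of genes near that level are less certain than those of higher genes, and pseudocounts of 0.1 and 0.5 gave 1011 and 955 calls.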

Other observations

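Some called genes outside the lists and the rule were picked after their values were seen. Abi1, an adaptor of the actin-regulating WAVE complex, had 14.3 to 288 FPKM in I/R libraries, against 10.4 to 64.2 FPKM in sham libraries, and rose by 2.30 (limma adjusted p 0.0471). It was lowest in I/R 3 among I/R libraries and highest in Sham 3 among sham libraries. GENCODE marks the locus as overlapping another gene, so its value is uncertain. Atf4, a transcription factor of the amino acid response, rose by 1.11, by 1.72 on B12 water and 0.50 on normal water. Rxrg, a retinoid X receptor, Adra1a, an alpha-1 adrenergic receptor, Ephx2, soluble epoxide hydrolase, and Gpam, which starts glycerolipid synthesis, fell by 0.68, 0.59, 0.47 and 0.82, all with I/R libraries below all sham libraries.

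The TATA box TATAAA was found in 8.06% of windows of genes called higher, against 7.63% of windows of tested genes. The interferon response letters were found in 4.69%, against 3.1%, and the E-box CACGTG in 11.6%, against 9.89%. In genes called higher by 1 or more the TATA box was found in 19% of 100 windows and the E-box in 4%. The AP-1 letters TGANTCA were found in 12% of these windows, against 5.23% in tested genes. All were searched on both strands. These shares are descriptions with no test.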
